A study of Homo sapiens with 105 samples.

Results

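Vk2/E6E7 cells treated with MALP2 were compared directly with the same cells treated with imiquimod. All arrays with these treatments in their titles were taken, 6 replicates of each agent, which makes 12 of the 105 arrays of the series. Vk2/E6E7 is a single line of human vaginal keratinocytes immortalized with the E6 and E7 genes of a human papillomavirus, and every array of the series came from it. Each treatment lasted 6 h. MALP2, a macrophage-activating lipopeptide, was given at 200 ng/ml, and imiquimod at 30 mg/ml by the labels, where the study's methods have micrograms in place of milligrams. The 53 usable arrays of untreated cells in growth medium (GM) served as the background level. The titles call the replicates biological, but nothing says whether they were cultures of separate days, so p-values rest on variation that may be technical.

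MALP2 is a lipopeptide that binds the Toll-like receptor (TLR) pair TLR2 and TLR6 at the cell surface. Imiquimod is a small imidazoquinoline known as a ligand of TLR7, a receptor of the endosome. Both routes run through the adaptor MYD88 to NFkB, the transcription factor that switches on cytokine and chemokine genes in epithelium. In cells that carry TLR7 this route also leads to interferon through the IRF factors. The 2 agents were placed by the study in the same class, as pro-inflammatory compounds (PICs), and the direct comparison asks in which genes the cells told them apart.

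Levels are log2 signals of Affymetrix U133 Plus 2.0 probesets after quantile normalization, and differences are MALP2 minus imiquimod on the log2 scale. The median level of an array lay between 6.48 and 6.59 with MALP2 and between 6.46 and 6.69 with imiquimod. Adjusted p-values are from limma with Benjamini-Hochberg adjustment over all 54613 probesets. Replicates 1 to 3 and replicates 4 to 6 of both agents stood apart from each other. Deviations from the group mean correlated at 0.0988 to 0.227 between MALP2 and imiquimod arrays of the same set of numbers and at -0.203 to -0.119 between arrays of different sets. The labels do not say what separates the sets, so values are also given within each of them. The ACTB 3 prime minus 5 prime difference, which grows as RNA degrades, averaged 0.488 ± 0.340 (SD, n = 6) with MALP2, 0.951 ± 0.682 (n = 6) with imiquimod and 0.430 ± 0.279 (n = 53) in GM, and that of GAPDH averaged 0.0844 ± 0.170 and 0.0992 ± 0.261. The exact two-sided permutation p for MALP2 against imiquimod was 0.152 for ACTB and 0.907 for GAPDH. The GAPDH difference separated the sets without overlap, at 0.206 to 0.410 in replicates 1 to 3 and -0.186 to 0.0118 in replicates 4 to 6 of both agents. In replicates 1 to 3 the imiquimod arrays (0.280 to 0.410) were all above the MALP2 arrays (0.206 to 0.247). The part of RNA quality in the results was not tested.

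The cells carried the markers of squamous epithelium under both agents. All 10 markers measured, among them KRT5, KRT14 and SFN, had group means from 10.99 to 15.06, and their summed linear signal was 150680 to 193257 with MALP2 and 157917 to 176916 with imiquimod. Of the 15 leukocyte markers, 13 had a GM mean under 7 (a signal of 128, called dim here because the files hold no detection flag), and the summed signal was 1070 to 1324 with MALP2 and 1090 to 1415 with imiquimod. The 11 markers of fibroblasts and endothelium summed to 2457 to 4620 and 2472 to 3495, with 8 of them dim, and the 6 of melanocytes to 422.5 to 651.4 and 499.3 to 701.9, with 5 dim. No marker of these 4 lists passed the test. In arrays of whole cultures, fewer cells of a type and less RNA per cell cannot be told apart.

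MALP2 and imiquimod gave profiles that differed in both directions. At an adjusted p under 0.05 and a fold over 2, 289 probesets (0.529% of those tested) were higher with MALP2 and 262 (0.48%) were higher with imiquimod. They belonged to 201 and 185 named genes. The median size of the difference was 1.53 among the first and 1.41 among the second. All 6 arrays of one agent lay above all 6 of the other in 160 of the 289 and in 212 of the 262, where the shares over all probesets were 1.81% and 2.31%. The sign was the same in both sets of replicate numbers for 284 of the 289 and 261 of the 262. The counts without overlap and with the same sign follow largely from the call, which used the same arrays. They are no independent evidence. The lower group was dim for 46% of those higher with MALP2 and 33.2% of those higher with imiquimod, and the size of those differences is uncertain. Of probesets higher with imiquimod, the GM mean lay nearer the MALP2 mean in 198 and nearer the imiquimod mean in 64, whereas those higher with MALP2 were split, 151 nearer imiquimod and 138 nearer MALP2. Against GM by the same rule, MALP2 raised 734 probesets (1.34%) and lowered 466 (0.853%), and imiquimod raised 949 (1.74%) and lowered 926 (1.7%). The GM arrays were pooled and not matched to the sets of replicate numbers. Differences from GM therefore mix the treatment with whatever separates the sets. Here and below, raised and lowered mean above and below the GM mean.

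**Figure D1:**
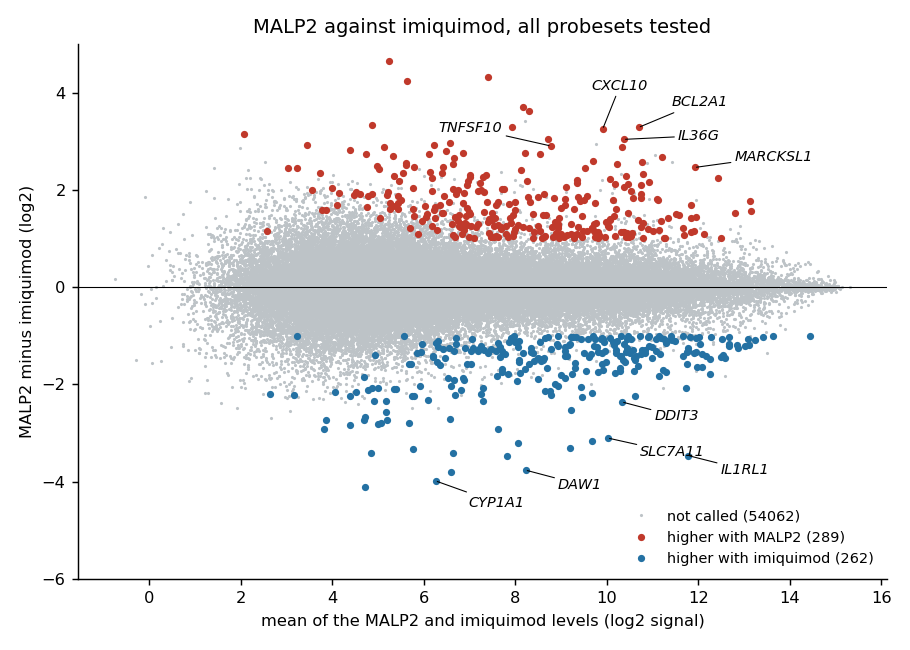
Difference between MALP2 and imiquimod (log2, vertical axis) against the mean of both group levels (log2 signal, horizontal axis) for the 54613 probesets tested. Red points are the 289 called higher with MALP2 and blue points the 262 called higher with imiquimod, and 10 genes described in the text are labelled.

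Genes were grouped into 30 lists by function. Lists and members were chosen with earlier results of these data known, so the order of the lists describes the data and is no independent evidence. Each list gene stands for its brightest probeset, whereas the shares given beside the counts are over all probesets, dim ones included. Of 618 list genes measured, marker lists included, 32 were higher with MALP2 and 41 higher with imiquimod at an adjusted p under 0.05 with no limit on the fold, the rule for all list counts that follow, where the shares over all probesets were 1.07% and 0.976%. The lists at the ends of the ordering were the interferon-stimulated genes, with a median difference of 1.70, and the targets of ATF4 and the chaperones of the endoplasmic reticulum (ER), with medians of -1.22 and -1.03. The median over all probesets was 0.0018.

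**Figure D2:**
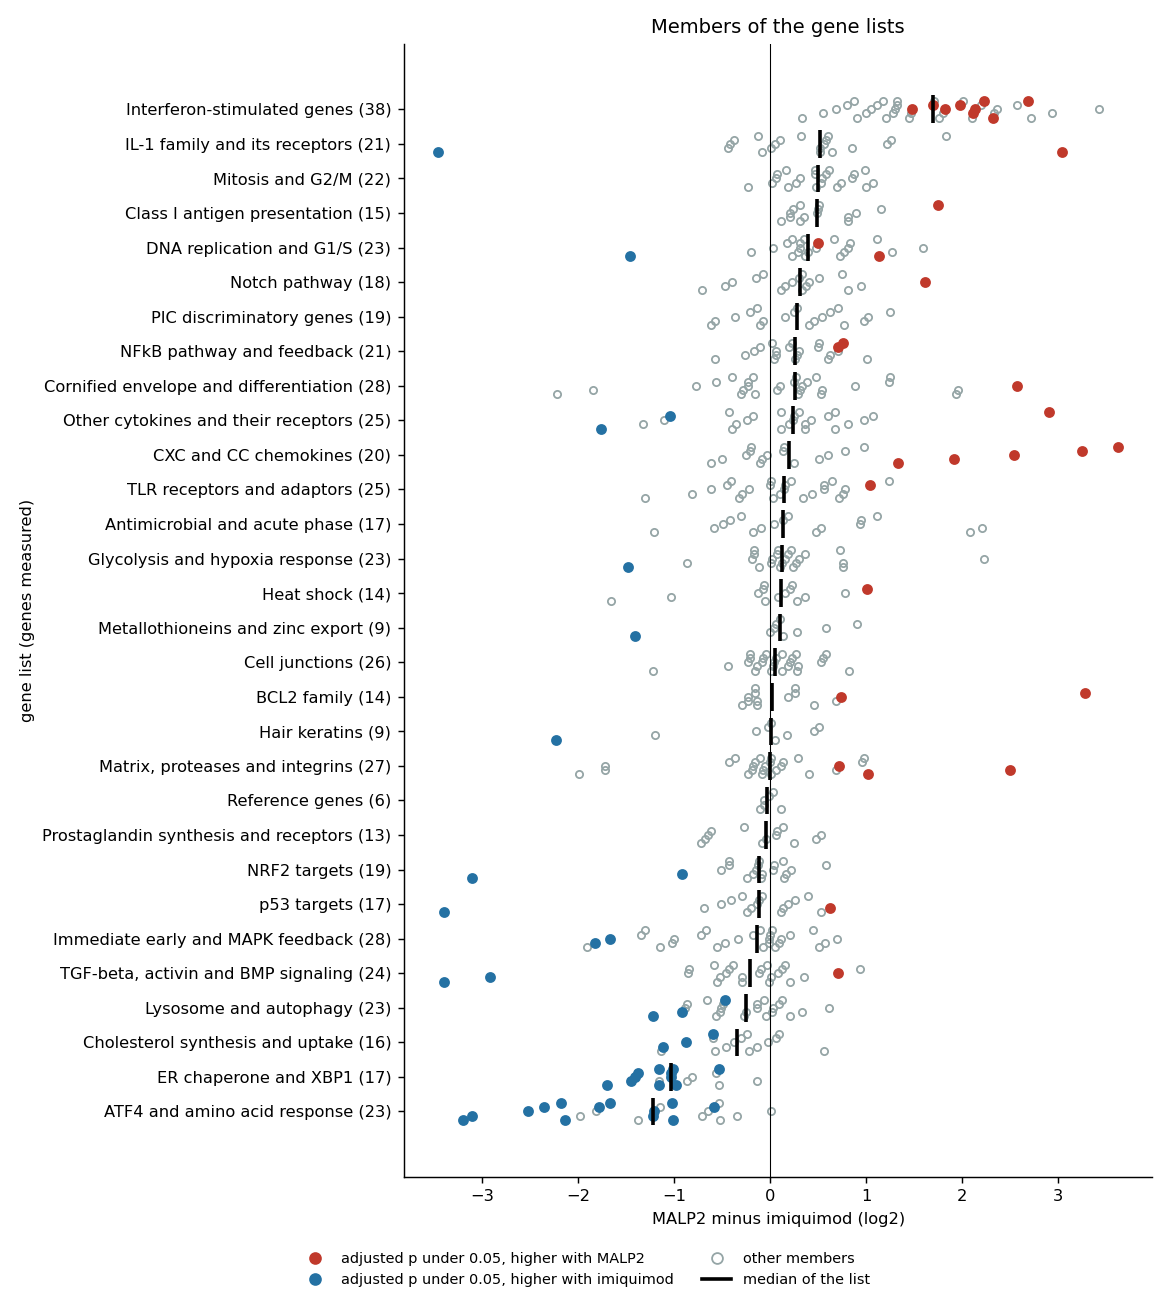
Differences between MALP2 and imiquimod (log2, horizontal axis) for the members of each gene list, with the number of genes measured in brackets. Each point is a gene, filled where the adjusted p was under 0.05 (red higher with MALP2, blue higher with imiquimod), and the bars are medians, from 1.70 for the 38 interferon-stimulated genes to -1.22 for the 23 ATF4 targets.

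Of the receptors, TLR2 passed. TLR2, the receptor chain for bacterial lipopeptides, had levels of 10.55, 11.04 and 11.31 (lowest, median and highest of the 6 arrays) with MALP2 and of 9.69, 9.84 and 10.48 with imiquimod. All MALP2 arrays were above all imiquimod arrays, and both groups were above the GM median of 8.48. The difference was 1.04 (SE 0.23, adjusted p = 0.00211), and was 0.63 in replicates 1 to 3 and 1.45 in replicates 4 to 6. The call was lost with the replicate number as a block (adjusted p = 0.0801) and with the sets as a random block (adjusted p = 0.134). Both agents raised TLR2 over GM, by 2.52 (adjusted p = 4.45e-23) with MALP2 and 1.48 (adjusted p = 2.09e-11) with imiquimod. MYD88, the adaptor, was 0.56 higher with MALP2 without passing (adjusted p = 0.0709; 95% interval of the difference 0.22 to 0.91).

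The messages of TLR7, TLR6, TLR1 and TLR8 had dim medians in all groups. TLR7, the imiquimod receptor, had medians of 5.44 with MALP2, 6.58 with imiquimod and 6.13 in GM. TLR6, the partner of TLR2, had medians of 5.23, 4.43 and 5.98, TLR1 of 4.98, 5.05 and 5.20, and TLR8 of 6.31, 6.12 and 6.16. None of these 4 differed between the agents past the threshold, and with 6 arrays each the 95% intervals still ran from -1.80 to 0.17 for TLR7 and from -0.42 to 1.29 for TLR6. The TLR7 means were 5.70 with MALP2 and 5.56 with imiquimod in replicates 1 to 3, and 5.31 and 7.07 in replicates 4 to 6. Of 25 receptors and adaptors measured, TLR2 was the only one to pass. In the NFkB list, 2 of 21 genes passed, REL (0.71, adjusted p = 0.0383), a subunit of the factor, and TNIP1 (0.76, adjusted p = 0.0451), a partner of the inhibitor A20, both higher with MALP2. Both calls were lost when single arrays were left out, in 9 of 12 cases for REL and 8 of 12 for TNIP1.

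The interferon-stimulated genes were higher with MALP2. Of 40 listed, 38 were measured, and all 38 had the higher mean with MALP2. The 9 that passed were IFIT3, OAS1, RIGI, PARP9, IFI44, IFIH1, SAMD9L, SAMD9 and DTX3L, with differences of 1.48 to 2.68. IFIT3 and OAS1 block viral RNA, RIGI and IFIH1 are sensors of RNA in the cytoplasm, and PARP9 and DTX3L form a complex that acts on histones and viral proteins. Interferon-stimulated genes as a class are mostly switched on through the interferon-stimulated response element (ISRE) in their promoters. The 250 bases before the start of IFIT3 and of CXCL10 are shown for this reason, with matches to the ISRE core, searched on both strands as GAAA, any 2 bases and GAAA, in capitals (RefSeq, GRCh38.p14).
IFIT3, chr10:89327747-89327996, plus strand: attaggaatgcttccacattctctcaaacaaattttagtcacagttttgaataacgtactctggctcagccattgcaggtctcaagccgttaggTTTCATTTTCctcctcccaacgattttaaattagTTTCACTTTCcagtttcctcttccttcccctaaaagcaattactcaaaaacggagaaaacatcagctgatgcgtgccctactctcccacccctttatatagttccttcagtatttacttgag
CXCL10, chr4:76023498-76023747, minus strand: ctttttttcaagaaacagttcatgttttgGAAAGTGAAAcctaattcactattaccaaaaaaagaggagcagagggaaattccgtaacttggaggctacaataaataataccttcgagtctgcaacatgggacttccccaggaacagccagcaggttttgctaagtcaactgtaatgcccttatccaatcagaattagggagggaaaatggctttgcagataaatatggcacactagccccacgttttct
IFIT3 held 2 matches, both in reverse complement, whose first bases lay 156 and 122 bases before the start, and CXCL10 held 1, at 221 bases. Of the 31 interferon-stimulated genes with a promoter in the table, 18 (58.1%) held the core, and so did 1061 of all 35116 promoters (3.02%). Among the 9 that passed, the core was found for IFIT3, IFI44, IFIH1 and SAMD9 only. The share describes a list of genes known to respond to interferon and is no result of these arrays. A match is a run of letters and does not show that a factor binds there.

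IFIT3 had levels of 10.57, 12.51 and 14.50 (lowest, median and highest) with MALP2 and of 7.74, 9.82 and 12.01 with imiquimod. The groups overlapped, and both agents gave lower values in replicates 4 to 6 than in replicates 1 to 3. In replicates 1 to 3 the means were 14.45 and 11.85, and in replicates 4 to 6 they were 10.62 and 7.86, so that the 3 MALP2 arrays were above the 3 imiquimod arrays in each set. The difference over both sets was 2.68 (SE 0.77, adjusted p = 0.039). RIGI showed the same layout, with 10.14, 11.10 and 12.50 against 7.72, 8.83 and 10.20, and differed by 2.23 in both sets and overall (SE 0.45, adjusted p = 0.000811). OAS1 ran from 10.78 to 13.14 against 8.13 to 11.27 (difference 2.32, adjusted p = 0.04). SAMD9 was the only member whose 6 MALP2 arrays were above all 6 imiquimod arrays, at 12.41 to 13.17 against 10.74 to 11.23.

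Looked at within the sets of replicate numbers, 36 of the 38 interferon-stimulated genes had all 3 MALP2 arrays above all 3 imiquimod arrays in both sets, where 4.13% of all probesets did. The median difference of the list was 1.45 in replicates 1 to 3 and 1.86 in replicates 4 to 6. DDX60 was the member with the sign turned in replicates 1 to 3 (-0.11, against 1.20 in replicates 4 to 6). The count of 9 members depended on how this variation was handled. It was 26 with the replicate number as a block and 36 with the sets as a fixed block shared by both agents. It was 5 with runs of 3 replicate numbers within each group as a random block, and 1 with the 12 arrays fitted alone. The fixed and random blocks are unlike models, so 36 and 5 are not a like comparison. The share of all probesets passing under the fixed block with no limit on the fold was not counted. The fixed-block list counts here and below therefore have no benchmark. The count of 9 was 5 without any single one of MALP2 replicates 1 to 3 or imiquimod replicates 4 to 6, and 12 to 14 without any one of the other arrays.

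Against GM, 27 of the 38 genes were raised by MALP2 and 2 by imiquimod, ISG20 (1.18) and SAMD9 (0.92), and none was lowered by either. The shares of all probesets were 3.28% raised by MALP2, 4.68% raised by imiquimod, 3.66% lowered by MALP2 and 6.19% lowered by imiquimod. Medians of the list were 1.60 above GM with MALP2 and 0.032 above GM with imiquimod. The value for imiquimod averaged sets on opposite sides of GM. In replicates 1 to 3 all 38 genes had an imiquimod mean above the GM mean, with a median of 1.54, and in replicates 4 to 6 35 had one below it, with a median of -1.20. The medians with MALP2 were 2.79 and 0.44. Both comparisons used the same GM arrays. The levels in GM were themselves spread over a wide range, from 8.46 to 14.02 for IFIT3 and from 7.80 to 12.25 for OAS1, so that the MALP2 arrays of replicates 4 to 6 lay inside it. The imiquimod mean of IFIT3 in replicates 4 to 6, at 7.86, lay below the lowest GM array.

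**Figure D3:**
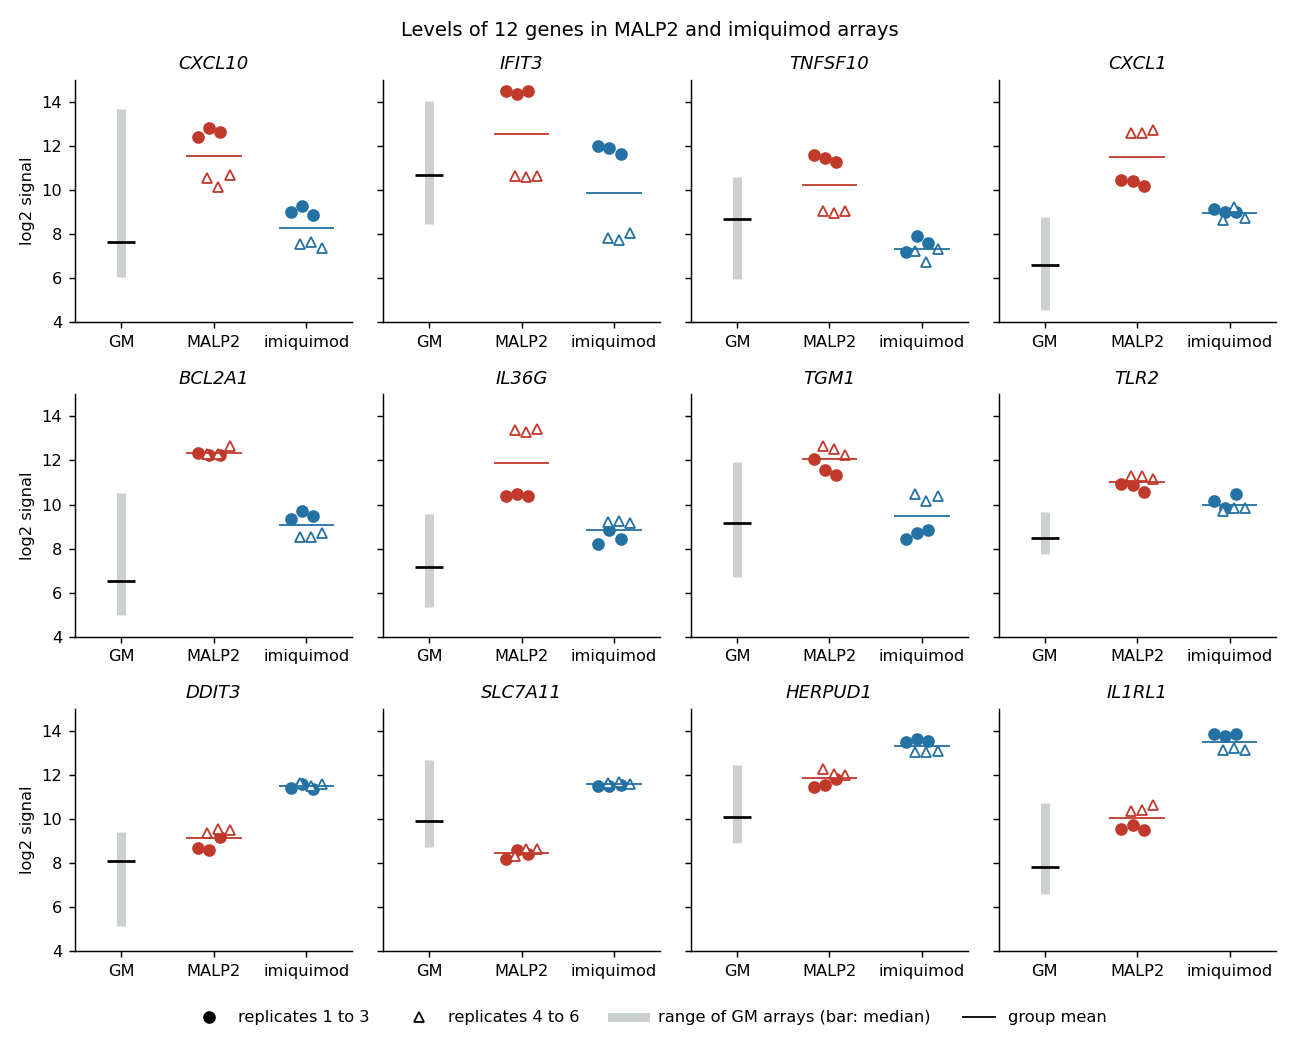
Level (log2 signal, vertical axis) of 12 genes in each MALP2 (red) and imiquimod (blue) array, with filled circles for replicates 1 to 3, open triangles for replicates 4 to 6 and a line at the group mean. The grey bar spans the 53 GM arrays and the black line is their median; for IFIT3 both agents drop by about the same step between the sets while MALP2 stays above imiquimod in each.

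Among chemokines, 5 of 20 were higher with MALP2 and none with imiquimod. CXCL10 and CXCL11 attract T cells through the receptor CXCR3, and both are induced by interferon. CXCL10 had levels of 10.14, 11.54 and 12.83 with MALP2 and of 7.38, 8.25 and 9.27 with imiquimod. No array overlapped. The imiquimod mean was 9.05 in replicates 1 to 3 and 7.52 in replicates 4 to 6. The GM median was 7.62, and the GM arrays themselves ran from 6.06 to 13.67. The difference was 3.25 (SE 0.53, 9.52-fold, adjusted p = 1.43e-05). CXCL11 had 7.55, 10.21 and 12.38 against 4.28, 6.55 and 8.28, and differed by 3.63 (adjusted p = 0.0068), with a lower group that was dim. CCL5, a chemokine for T cells and monocytes, had 8.79 to 10.36 against 6.43 to 8.93 (difference 1.91, adjusted p = 0.00303). CXCL10 and CCL5 were above GM with MALP2, by 3.81 and 2.50, and 0.55 and 0.59 above it with imiquimod without passing. For both genes the imiquimod value averaged a set above the GM mean and a set below it. The CCL5 means with imiquimod were 8.75 in replicates 1 to 3 and 6.61 in replicates 4 to 6, beside 7.09 in GM.

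Of the neutrophil chemokines, CXCL1 passed and CXCL2, CXCL3 and CXCL8 did not. CXCL1 had levels of 10.17, 11.53 and 12.71 with MALP2 and of 8.63, 9.00 and 9.22 with imiquimod, with no overlap, and differed by 2.54 (SE 0.51, adjusted p = 0.000694). The difference was 1.31 in replicates 1 to 3 and 3.77 in replicates 4 to 6. The call was lost with the replicate number as a block (adjusted p = 0.0632) and kept with the sets as a fixed block (adjusted p = 0.00328). CXCL2 and CXCL3, close relatives of CXCL1 that share much of its sequence and may share probe signal, differed by -0.21 and -0.62 with adjusted p = 0.954 and 0.745. Both values averaged sets of opposite sign. The CXCL2 means with MALP2 and imiquimod were 11.28 and 12.56 in replicates 1 to 3 and 11.59 and 10.74 in replicates 4 to 6. Those of CXCL3 were 11.03 and 12.75, then 10.33 and 9.86. CXCL8 was at 12.80 to 14.61 against 12.38 to 13.13 and did not pass (0.98, adjusted p = 0.853; 95% interval -1.02 to 2.97). Its means were 12.85 and 12.98 in replicates 1 to 3 and 14.59 and 12.50 in replicates 4 to 6, where the arrays did not overlap. CXCL16, a membrane-bound chemokine, was higher with MALP2 by 1.33 (adjusted p = 0.00753) and lay above imiquimod in every array. CCL4 was outside the rule for named genes for its low level, but its difference of 4.24 was among the largest found, with means of 7.76 and 3.52, and was chosen for mention after its values were seen.

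BCL2A1 and IL36G were the other genes of inflammation that stood out. BCL2A1, an inhibitor of apoptosis that NFkB switches on, had levels of 12.26, 12.27 and 12.64 with MALP2 and of 8.52, 9.04 and 9.69 with imiquimod, against a GM median of 6.51. Both agents raised it over GM, by 5.87 and 2.59, and MALP2 was higher by a further 3.28 (SE 0.47, 9.74-fold, adjusted p = 5.12e-07). BID, a pro-apoptotic member of the same family, was also higher with MALP2 (0.73, adjusted p = 0.00218), and these were the 2 of 14 BCL2 family genes to pass. IL36G, an epithelial cytokine of the IL-1 family, had 10.39, 11.88 and 13.41 against 8.21, 9.01 and 9.24, with a difference of 3.04 (SE 0.55, adjusted p = 0.000106) that was 1.92 in replicates 1 to 3 and 4.16 in replicates 4 to 6. TNFSF10, the death ligand TRAIL and itself a gene that interferon induces, had 8.94 to 11.59 against 6.73 to 7.92 (difference 2.90, adjusted p = 0.000248). It was 1.64 above GM with MALP2 (adjusted p = 0.00388) and 1.26 below GM with imiquimod (-1.26, adjusted p = 0.0289).

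IL1RL1 went the other way. This gene encodes ST2, the receptor of IL-33, and its levels were 9.51, 10.06 and 10.66 with MALP2 and 13.15, 13.52 and 13.88 with imiquimod, with a GM median of 7.84. Both agents raised it, by 1.95 and 5.41 over GM, and imiquimod was higher by 3.46 (difference -3.46, SE 0.51, adjusted p = 1.05e-06). IL1RL1 and IL36G were the 2 of 21 IL-1 family genes to pass, and the cytokine IL33 itself differed by 1.83 without passing (adjusted p = 0.163). In both sets all 3 MALP2 arrays were above all 3 imiquimod arrays for 8 of the 21, IL33 among them, where 4.13% of all probesets were. The reverse held for 1. With the sets as a fixed block, 8 were higher with MALP2 and 1 with imiquimod. Of 25 other cytokines and receptors, IL24, an epithelial cytokine of the IL-10 family (-1.77, adjusted p = 0.0161), and TNFSF15 (-1.04, adjusted p = 0.00355) were higher with imiquimod.

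Targets of ATF4 were higher with imiquimod. ATF4 is the transcription factor of the integrated stress response, which is translated when amino acids run short or the ER is overloaded, and it switches on genes for amino acid transport and synthesis together with DDIT3 (CHOP), a factor linked to cell death under stress. Of 23 genes measured, 13 passed with imiquimod higher and none with MALP2 higher, and the median difference was -1.22. ATF4 binds C/EBP-ATF elements. CHAC1, a glutathione-degrading enzyme and one of the largest differences, is shown here with its match to TGATGNAA, searched on both strands, in capitals (250 bases before the start, RefSeq, GRCh38.p14).
CHAC1, chr15:40953221-40953470, plus strand: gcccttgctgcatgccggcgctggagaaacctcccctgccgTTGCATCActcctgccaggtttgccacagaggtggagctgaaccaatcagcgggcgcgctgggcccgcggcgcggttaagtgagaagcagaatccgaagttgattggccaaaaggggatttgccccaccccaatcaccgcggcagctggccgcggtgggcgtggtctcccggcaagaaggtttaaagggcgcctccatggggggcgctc
The match, in reverse complement, began 209 bases before the start. It was present in 3 of 20 ATF4 genes with a promoter in the table (15%) and in 1104 of 35116 promoters overall (3.14%).

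DDIT3 had levels of 8.59, 9.28 and 9.56 with MALP2 and of 11.38, 11.54 and 11.63 with imiquimod. All imiquimod arrays exceeded both the MALP2 arrays and the highest GM array, at 9.40. The difference was -2.36 (SE 0.32, 5.14-fold, adjusted p = 1.55e-07), and DDIT3 was raised over GM by 3.49 with imiquimod and by 1.13 with MALP2 (adjusted p = 0.000484). CHAC1 had 4.96, 7.03 and 7.36 against 9.51, 9.65 and 9.85 (difference -3.21, adjusted p = 0.000117). SLC7A11, the cystine transporter, had 8.20, 8.51 and 8.64 against a median of 11.56 and a highest value of 11.69, with no overlap, and the difference of -3.10 (SE 0.42, adjusted p = 1.63e-07) was -3.11 in replicates 1 to 3 and -3.10 in replicates 4 to 6. It lay on both sides of the GM median of 9.92, raised by 1.52 with imiquimod and lowered by 1.58 with MALP2 (-1.58, adjusted p = 0.000178).

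CTH, which makes cysteine, differed by -2.53 (adjusted p = 0.0136), ATF4 itself by -1.22 (adjusted p = 0.0157), and SESN2 and STC2, both responsive to amino acid and ER stress, by -2.14 (adjusted p = 1.63e-07) and -2.18 (adjusted p = 2.5e-07). ASNS, asparagine synthetase, did not pass (-1.82, adjusted p = 0.24), with a difference of -0.49 in replicates 1 to 3 and -3.15 in replicates 4 to 6. Against GM, 13 genes were raised by imiquimod, whereas with MALP2 1 was raised and 4 were lowered. The 3 imiquimod arrays were above the 3 MALP2 arrays in both sets for 20 of the 23, where 4.39% of all probesets were. The count of 13 was 7 in replicates 4 to 6 alone, 8 in replicates 1 to 3 alone or with all 105 arrays, and 20 with the sets as a fixed block.

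The chaperones and quality control genes of the ER, many of which are targets of XBP1 and ATF6, were also higher with imiquimod. Of 17 measured, 11 passed, none was higher with MALP2, and all 17 differences were negative. The promoter of HSPA5 (BiP, the main chaperone of the ER lumen) is shown because it holds the ER stress element, searched on both strands as CCAAT, any 9 bases and CCACG, and given in capitals (250 bases before the start, RefSeq, GRCh38.p14).
HSPA5, chr9:125241344-125241593, minus strand: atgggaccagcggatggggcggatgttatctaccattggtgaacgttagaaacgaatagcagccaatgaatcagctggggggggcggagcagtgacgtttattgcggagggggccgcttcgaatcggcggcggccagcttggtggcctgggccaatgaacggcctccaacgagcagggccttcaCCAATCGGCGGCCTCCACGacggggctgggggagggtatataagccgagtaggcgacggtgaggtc
This match began 66 bases before the start. The element was found in 6 of the 17 genes (35.3%), HSPA5, HSP90B1, CALR, CANX, XBP1 and CRELD2, and in 26 of 35116 promoters (0.074%).

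HSPA5 had levels of 13.65, 13.92 and 14.09 with MALP2 and of 14.86, 14.94 and 15.02 with imiquimod, a difference of -1.01 (SE 0.24, adjusted p = 0.00795). HERPUD1, which helps to clear misfolded proteins from the ER, had 11.45, 11.91 and 12.29 against 13.04, 13.30 and 13.62 (difference -1.45, SE 0.32, adjusted p = 0.00297). It was raised over GM by both agents, by 1.60 and 3.04. SDF2L1, an ER lumen protein, differed by -1.70 (adjusted p = 9.06e-06), SEL1L, part of the ER degradation complex, by -1.38 (adjusted p = 0.000414), and CRELD2 by -1.41 (adjusted p = 0.000236). Imiquimod raised all 17 genes over GM at an adjusted p under 0.05, and MALP2 raised 4, HERPUD1, SDF2L1, DNAJC3 and XBP1. In 16 of the 17, all 6 imiquimod arrays were above all 6 MALP2 arrays, where 2.31% of all probesets were. DNAJB9 was the exception, with differences of 1.32 in replicates 1 to 3 and -1.61 in replicates 4 to 6. The count of 11 was 8 in replicates 1 to 3 alone, 0 in replicates 4 to 6 alone, 6 with all 105 arrays and 16 with the sets as a fixed block.

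**Figure D4:**
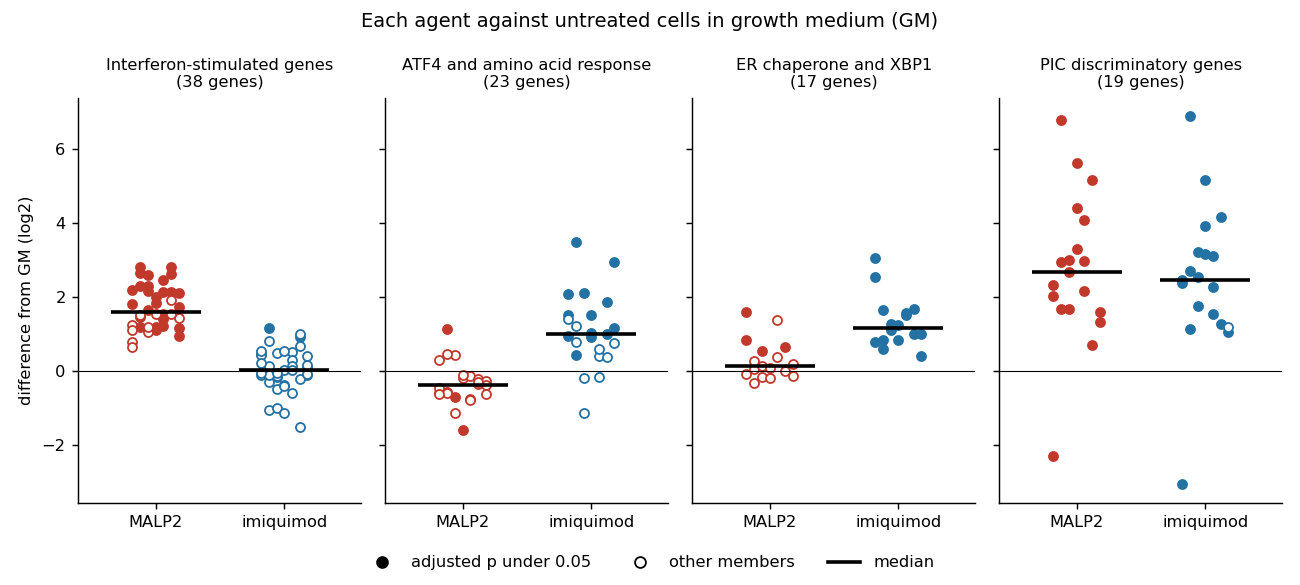
Difference of each agent from GM (log2, vertical axis) for the members of 4 lists, MALP2 in red and imiquimod in blue, filled where the adjusted p was under 0.05. The bars are medians, 1.60 with MALP2 and 0.032 with imiquimod for interferon-stimulated genes, -0.38 and 1.01 for ATF4 targets, 0.14 and 1.16 for ER chaperones, and 2.69 and 2.46 for the discriminatory genes.

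Of 14 heat shock genes, the cochaperone CHORDC1 alone passed, higher with MALP2 (1.01, adjusted p = 0.00577), at 11.59 to 11.94 with MALP2 and 9.96 to 11.32 with imiquimod. It was 1.14 below GM with imiquimod (-1.14, adjusted p = 4.21e-07) and near GM with MALP2 (-0.13). Of 19 NRF2 targets, 2 were higher with imiquimod, SLC7A11 and the thioredoxin reductase TXNRD1 (-0.92, adjusted p = 0.00299).

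Other genes higher with imiquimod were scattered over several functions. CYP1A1, a detoxifying enzyme that the aryl hydrocarbon receptor switches on, had levels of 3.43, 4.04 and 5.90 with MALP2 and of 7.11, 8.38 and 9.01 with imiquimod. The difference was -3.99 (SE 0.78, adjusted p = 0.000529), or -3.13 with a signal of 16 added to damp the dim group. The agents fell on either side of GM, -2.49 with MALP2 (adjusted p = 0.00193) and 1.49 with imiquimod (adjusted p = 0.0895). DAW1, a gene of ciliary dynein transport, was at 5.42 to 7.01 against 9.17 to 11.02 (-3.76, adjusted p = 1.94e-10), and ESM1, a secreted proteoglycan of endothelium, at 7.00 to 8.14 against 9.78 to 11.87 (9.86-fold higher with imiquimod, adjusted p = 0.00131). GDF15, a stress cytokine, differed by -3.40 (adjusted p = 0.00438) and GREM1, a BMP antagonist, by -2.92 (adjusted p = 0.00973), both with a dim MALP2 level. VEGFA, the vascular growth factor and a target of ATF4 as well as of hypoxia, was at 11.01 to 11.84 against 12.62 to 13.42 (-1.48, adjusted p = 0.00336), and was the single gene of the 23 in its glycolysis and hypoxia list to pass. Of the 23 differences 17 were positive. In both sets all 3 MALP2 arrays were above all 3 imiquimod arrays for 7 genes, and the reverse held for 1. Over all probesets the shares were 4.13% and 4.39%. With the sets as a fixed block, 5 were higher with MALP2 and 1 with imiquimod.

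Small numbers of metabolic and trafficking genes were also higher with imiquimod. In the cholesterol list 3 of 16 genes passed, all enzymes of the pathway and all higher with imiquimod, NSDHL (-1.11), IDI1 (-0.88) and MSMO1 (-0.60). Leaving out 1 array gave 1 to 4, and MSMO1 lost its call in 11 of 12 cases and NSDHL in 6. In the lysosome and autophagy list 3 of 23 did, GABARAPL1 (-1.23), an autophagosome protein, NPC1 (-0.92), the lysosomal cholesterol exporter, and ATP6V1H (-0.47), a subunit of the proton pump, and leaving out 1 array gave 1 to 3. SLC30A1, the zinc exporter, was higher with imiquimod by 1.41 (difference -1.41, adjusted p = 0.037), and none of the other 8 genes of the metallothionein list passed. Among immediate early genes, NR4A2 (-1.83, adjusted p = 0.000266) and ATF3 (-1.67, adjusted p = 0.0276) were the 2 of 28 to pass. ERO1B, an ER oxidase, differed by -2.33 (adjusted p = 0.00117), with a dim MALP2 level, and by -4.12 on a second, dimmer probeset.

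Genes of differentiation and matrix gave few calls. TGM1, the transglutaminase that cross-links the cornified envelope, had levels of 11.33, 12.15 and 12.65 with MALP2 and of 8.42, 9.49 and 10.48 with imiquimod, a difference of 2.57 (SE 0.69, adjusted p = 0.0223), and was the only one of 28 differentiation genes to pass. The direction in this list turned between the sets. MALP2 gave the higher mean for 21 of the 28 in replicates 1 to 3 but for 9 in replicates 4 to 6. Median differences were 0.63 and -0.17 in that order. A fixed block for the sets gave 5 calls toward MALP2 and 2 toward imiquimod. Against GM the list median was 0.13 (MALP2) and -0.34 (imiquimod) in replicates 1 to 3. It was 2.87 and 3.18 in the other set. The reason for this rise was not tested. The hair keratin KRT33B was higher with imiquimod (-2.23, adjusted p = 0.0354). Its means were 7.60 with MALP2 and 11.28 with imiquimod in replicates 1 to 3, and 7.72 and 8.50 in replicates 4 to 6. MMP13 (2.50, adjusted p = 0.00145, both groups dim), MMP12 (1.02, adjusted p = 0.0188) and the inhibitor TIMP1 (0.71, adjusted p = 0.0336) were the 3 of 27 matrix genes to pass, all higher with MALP2. TIMP1 had the sign turned in replicates 1 to 3 (-0.085). The collagenase MMP1 and the stromelysin MMP3 did not pass (-1.72, adjusted p = 0.413, and -1.99, adjusted p = 0.059), but within each set their 3 imiquimod arrays lay above the 3 MALP2 arrays, as did those of COL8A1, and both passed with the replicate number as a block (adjusted p = 0.0344 and 0.0165). The replication licensing factors CDC6 and CDT1 moved in opposite directions. CDC6 had 9.54 to 10.95 against 11.00 to 12.35 (-1.46, adjusted p = 1.98e-05), and CDT1 had 9.73 to 10.60 against 8.72 to 9.76 (1.13, adjusted p = 0.0317). SLBP, which binds histone mRNA, was 0.50 higher with MALP2 (adjusted p = 0.0401). Of 22 mitotic genes 0 passed by limma, 3 had an unadjusted p under 0.05 and 1 passed with the replicate number as a block, with a median difference of 0.50. In both sets all 3 MALP2 arrays were above all 3 imiquimod arrays for 11 of the 22 mitotic and 10 of the 23 replication genes. Over all probesets the share was 4.13%. With the sets as a fixed block, 7 and 9 were higher with MALP2, beside 1 replication gene higher with imiquimod.

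MARCKSL1, a regulator of actin, separated the agents with little spread. It had levels of 12.99, 13.12 and 13.41 with MALP2 and of 10.22, 10.61 and 11.34 with imiquimod, against a GM median of 10.99, and differed by 2.46 (SE 0.23, 5.50-fold, adjusted p = 4.27e-14). COXFA4L3, a mitochondrial protein family member, had 13.44 to 13.73 against 10.79 to 11.76 (2.24, adjusted p = 0.0207). GBP3, a guanylate-binding protein that interferon induces, had 10.67 to 12.21 against 8.88 to 9.79 (2.06, adjusted p = 9.33e-07), and SP140L, a nuclear body protein, had 9.10 to 11.84 against 7.71 to 8.70 (2.20, adjusted p = 4.63e-07). The SP140L difference was 3.30 in replicates 1 to 3 and 1.11 in replicates 4 to 6. Its call was lost with the replicate number as a block (adjusted p = 0.0709) and kept with the sets as a fixed block (adjusted p = 0.00414). RAB7B, a GTPase of vesicle traffic, had levels of 8.61, 8.79 and 8.89 with MALP2 and of 4.19, 7.29 and 8.62 with imiquimod, both under the GM median of 10.16, and differed by 2.02 (adjusted p = 0.000641). It was lowered by both agents, by MALP2 to a lesser extent (-1.24 and -3.27 against GM), and its difference was 3.70 in replicates 1 to 3 and 0.34 in replicates 4 to 6. LRRC4 (2.76, adjusted p = 0.000238) had a dim level with imiquimod. Outside the naming rule, MGAM, an intestinal glucosidase picked after its values were seen, had means of 7.56 and 2.91, the second so dim that the size of the difference is uncertain.

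The study chose 20 discriminatory genes to tell pro-inflammatory from non-inflammatory compounds. Of these 19 were measured, and 0 passed in the direct comparison by limma, also with the replicate number as a block or the sets as a random block, while 2 passed with the sets as a fixed block and 4 had an unadjusted p under 0.05. Against GM, 18 were raised and 1 lowered by MALP2, and 17 were raised and 1 lowered by imiquimod, which is no independent evidence, since the genes were chosen on these arrays. CCL20, a chemokine for dendritic and Th17 cells, had levels of 11.66, 12.29 and 13.09 with MALP2, of 11.64, 12.37 and 13.38 with imiquimod, and a GM median of 5.05. Its difference was -0.11 (adjusted p = 0.99), with a 95% interval from -1.86 to 1.64 that leaves room for more than a 2-fold difference either way. SERPINB2, an inhibitor of plasminogen activators, differed by -0.08 (interval -1.01 to 0.86) and KRT34, a hair keratin, by 0.45 (interval -1.31 to 2.22). OLR1, a scavenger receptor, was at 13.22 to 13.62 against 11.74 to 12.96 and did not overlap, but did not pass (1.02, adjusted p = 0.381).

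Values of the discriminatory genes were also read within the sets of replicate numbers. In replicates 1 to 3, 6 of the 19 were higher with MALP2, and in replicates 4 to 6, 16 were. The median difference was -0.18 in the first set and 0.85 in the second. For CCL20 the mean levels were 11.83 with MALP2 and 13.07 with imiquimod in replicates 1 to 3, and 12.77 and 11.75 in replicates 4 to 6. NFKBIZ, an atypical IkB protein, was the one member for which the 2 differences themselves differed past the threshold, -0.64 and 1.88 (limma, adjusted p = 0.0203). Over all probesets that test called 22, or 0.0403%.

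**Figure D5:**
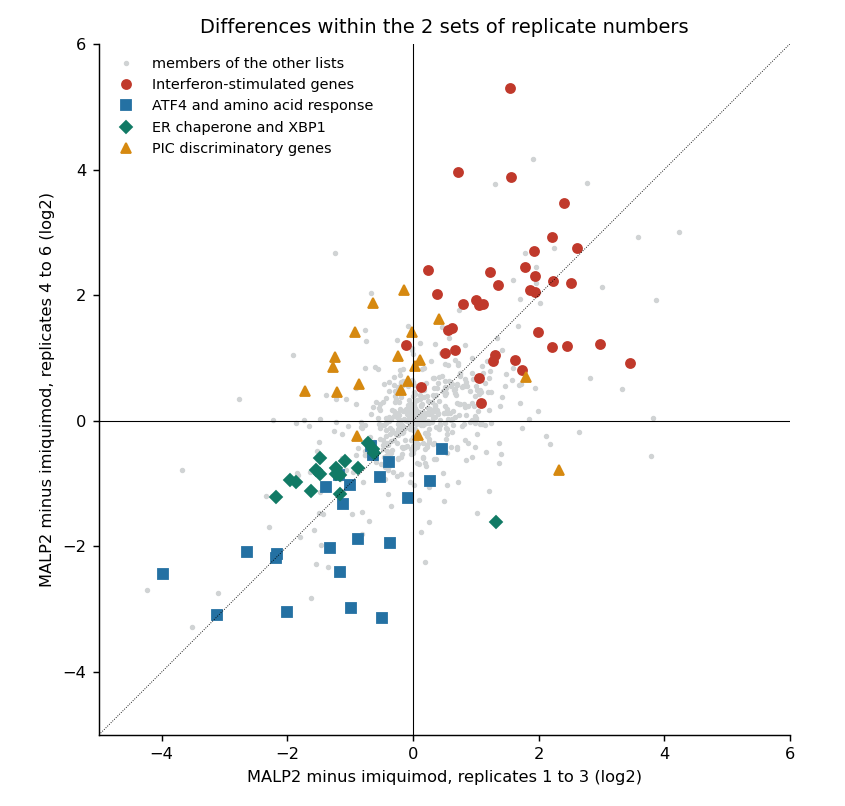
Difference between MALP2 and imiquimod (log2) in replicates 4 to 6 (vertical axis) against that in replicates 1 to 3 (horizontal axis) for list members, with 4 lists coloured and a dotted line of equality. Interferon-stimulated genes lie in the upper right and ATF4 and ER genes mostly in the lower left, while discriminatory genes have medians of -0.18 and 0.85.

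Reference genes gave small differences. GAPDH had levels of 14.21, 14.28 and 14.60 with MALP2 and of 14.28, 14.36 and 14.63 with imiquimod (difference -0.06, 95% interval -0.26 to 0.13), and ACTB differed by -0.11 (interval -0.26 to 0.04). By limma 0 of the 6 reference genes, 0 of 26 cell junction genes, 0 of 17 antimicrobial genes and 0 of 13 prostaglandin genes passed, while 0, 0, 4 and 2 had an unadjusted p under 0.05. With the replicate number as a block, 2 antimicrobial genes were higher with MALP2 and 1 with imiquimod, and 1 prostaglandin gene passed. In class I antigen presentation, NLRC5, the activator of that gene set, passed (1.75, adjusted p = 0.00957) out of 15, all with a positive difference. The NLRC5 difference was 2.82 in replicates 1 to 3 and 0.68 in replicates 4 to 6. The call was lost with the replicate number as a block (adjusted p = 0.113) and with the random block (adjusted p = 0.0899). It was kept with the sets as a fixed block (adjusted p = 0.0156). In the Notch list LFNG passed out of 18 (1.62, adjusted p = 0.0418), by a difference of 3.79 in replicates 1 to 3 and -0.56 in replicates 4 to 6. In the p53 list SUSD6 (0.62, adjusted p = 0.0357) was higher with MALP2 and GDF15 with imiquimod, out of 17. SMAD3, the TGF-beta signal transducer, was higher with MALP2 (0.70, adjusted p = 0.0366), while GREM1 and GDF15 were the 2 of 24 in the TGF-beta and BMP list that were higher with imiquimod.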

How the data were processed

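Values came from Affymetrix U133 Plus 2.0 arrays of Vk2/E6E7 cells. The authors deposited log2 signals, 1 per probeset. Per the labels MAS5 and GCOS 1.3 were used, whereas the study's methods describe RMA. The values follow the steps of MAS5 signals and hold no detection flags.

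The 62 control probesets were removed and 103 of the 105 arrays were quantile normalized together. The 2 arrays left out were TNF-alpha replicate 6, equal to the mean of replicates 1 to 3, and a GM array whose highest correlation with any other array was 0.0484. In limma 3.58.1 (R 4.3.3), 1 mean per group was fitted and MALP2 contrasted with imiquimod over 54613 probesets, of which 41097 named 1 gene, 1801 named several and 11777 were not listed. Each gene stands for its brightest probeset with a single gene. The fit was tested on simulated data. The number of arrays limits the precision.

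Named genes were the 12 with the largest called difference each way. They were taken among genes with a group mean of at least 8 and at least 5 arrays beyond the other group. Up to 4 passing members of each list were added. TLR1, TLR2, TLR6, TLR7, TLR8, MYD88, the discriminatory genes, GAPDH and ACTB were also named. Members and lists were chosen with earlier results of these data known. Alternatives covered the normalization, an offset of 16, dim probesets, the arrays fitted, blocks, the study's analysis of variance and each replicate left out.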

Additional observations from a re-analysis of the deposited data

Results flagged for a closer look

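Of 176 groups of 6 arrays tested for a lone high or low value, 7 exceeded the 95% critical value of Dixon's test. Chance would give 8.8 if the 6 arrays of each group came from 1 normal population. The sets of replicate numbers stood apart, so that number need not hold here. The count does not show that lone values are absent. The 7 values with imiquimod or MALP2 were as follows. With imiquimod they were replicate 4 for ACTB (14.57), replicate 1 for GABARAPL1 (9.43) and replicate 6 for SMAD3 (9.32). With MALP2 they were replicate 6 for BCL2A1 (12.64) and CRELD2 (10.73), replicate 4 for CDT1 (9.73) and replicate 1 for NR4A2 (6.07).

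The difference between the agents itself differed between replicates 1 to 3 and replicates 4 to 6 for 3 named genes (limma, Benjamini-Hochberg adjusted over all probesets). For RAB7B, a GTPase of vesicle traffic, the difference was 3.70 in the first set and 0.34 in the second, a change of 3.36 (adjusted p = 0.00772). For LFNG, which modifies Notch, it was 3.79 and -0.56, a change of 4.35 (adjusted p = 0.00281), with dim levels in some groups. For NFKBIZ it was -0.64 and 1.88, a change of -2.52 (adjusted p = 0.0203). The labels do not say what separates the sets, and the cause was not tested.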

How the results depend on the processing

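Counts of probesets higher with MALP2 (289) and with imiquimod (262) stayed within 1.5 times without quantile normalization, with the offset, without dim probesets and with the 12 arrays alone. They moved to 135 and 154 with all 105 arrays. With runs of 3 replicate numbers within each group as a random block they moved to 1.0e+02 (rounded) and 129. With the sets, shared by both agents, as a fixed block in the 12 arrays they moved to 471 and 480. They moved to 86 and 74 in replicates 4 to 6 alone, and to 694 and 625 with the methods' analysis of variance. Leaving out each array gave 223 to 290 and 225 to 258. Against GM, the counts for MALP2 and imiquimod (1200 and 1875) moved to 715 and 1062 without dim probesets and to 661 and 1105 with the random block. List members passing (73) moved to 34 with all arrays, 38 with the random block, 205 with the fixed block, 47 in replicates 1 to 3 and 19 in replicates 4 to 6. The analysis of variance was not run for list members and named genes. The cause of these shifts was not tested.

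The replicate number as a block in the 12 arrays gave 276 and 315 probesets and 104 list members, and 19 named genes lost the call, CXCL1, SP140L, RAB7B, GDF15, KRT33B, MSMO1, NLRC5, CDT1, SLBP, CHORDC1, NPC1, ATP6V1H, TIMP1, TNIP1, REL, LFNG, SMAD3, TLR2 and SUSD6. Same-numbered arrays deviated together at correlations of 0.0988 to 0.182, so the lowest did not reach 0.1 and the numbers were not taken to pair the samples. With the sets as a fixed block in the 12 arrays, 82 of the 88 named genes kept the outcome of the main fit. Of the rest, 3 were stronger and 3 lost the call.

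In replicates 1 to 3 the sign turned for TIMP1 (-0.085), TLR7 (0.13), TLR8 (-0.037), TNFAIP3 (-0.014), INHBA (-0.18), FGF2 (-0.24), SERPINB2 (0.080), NFKBIZ (-0.64), PPP4R4 (-0.087), PTGS2 (-0.93) and CXCL8 (-0.14), and in replicates 4 to 6 for LFNG (-0.56), TLR6 (-0.53), G0S2 (0.58), CXCL3 (0.47), CXCL2 (0.85), PRDM1 (0.46), CCL20 (1.02), CAVIN2 (-0.79) and GAPDH (0.12). Leaving out single arrays turned the sign of INHBA (-0.014 to 0.34), G0S2 (-0.30 to 0.043), PTGS2 (-0.045 to 0.55), CCL20 (-0.27 to 0.086) and the GAPDH 3 prime minus 5 prime difference (-0.064 to 0.047). Of the 62 named genes that passed, 28 lost the call with all 105 arrays and 31 with the random block (TGM1, COXFA4L3, GDF15, GREM1, CTH, ERO1B, KRT33B, CCL5, NSDHL, MSMO1, NLRC5, CDT1, SLBP, CHORDC1, ATF3, IFIT3, OAS1, GABARAPL1, NPC1, ATP6V1H, MMP13, MMP12, TIMP1, SLC30A1, TNIP1, REL, LFNG, IL24, SMAD3, TLR2 and SUSD6). Of the 62, 39 passed without each of the 12 arrays. The other 23 lost the call without at least 1 array: ATF3, ATP6V1H, CDT1, COXFA4L3, CTH, IFIT3, IL24, KRT33B, LFNG, MMP12, MSMO1, NLRC5, NPC1, NSDHL, OAS1, REL, SLBP, SLC30A1, SMAD3, SUSD6, TGM1, TIMP1 and TNIP1. Sizes of differences against a dim group are uncertain.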
